A study of Mus musculus with 6 samples.

Results

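The genes described are 7 genes linked to alternative macrophage activation, Arg1, Retnla, Mgl2, Egr2, Il4ra, Matk and Pdcd1lg2. They were taken by gene name from the deposited table of transcripts, in which they have 14 of 33539 transcripts. RNA came from mouse peritoneal macrophages of wild-type mice (WT, 3 libraries) and of littermates in which, according to the series title, Fbxo38 was deleted in myeloid cells (Fbxo38 cKO, 3 libraries). All 6 cultures had been exposed for 24 h to IL-4 and IL-13 (20 ng/mL), and no unstimulated culture was analysed here, so the values compare genotypes under the cytokines and do not measure induction. The sources used here do not name the Cre driver, the deleted exons, the sex or the age of the mice. FBXO38 is the substrate-binding subunit of a ubiquitin ligase.

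IL-4 and IL-13 bind receptors that share the IL-4 receptor alpha chain, encoded by Il4ra, and signal through JAK kinases to the transcription factor STAT6. In mouse macrophages, STAT6 switches on Arg1, Retnla, Mgl2 and Pdcd1lg2, and it induces Egr2, a transcription factor that maintains the later part of the response. The resulting state is known for arginine breakdown, tissue repair and defence against helminths.

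Arg1 was the member with by far the highest level, and its summed transcripts averaged 2.83 times more TPM (transcripts per 1000000 transcripts of a library) in WT than in cKO, with no overlap between the genotypes. Matk and the single listed Il4ra transcript were also lower in each cKO library than in any WT library, and the single listed Egr2 transcript was higher. Of the 7 genes, 5 passed the filter on low values and were tested, and none of these 5 passed the adjusted threshold of 0.05. Over all 2392 gene sums tested, 21.0% were lower and 10.5% higher in cKO without overlap. For Il4ra the lack of overlap followed from the filter, which only its WT libraries met. Each row of the deposited table has an absolute log2 fold change of at least 1.0001 in the authors' comparison, so it was selected on the outcome. Fold changes of members are therefore large by construction, and p-values computed on these rows carry the same selection. Isoforms outside the table were not analysed here.

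The libraries differ in ways beyond genotype. Listed transcripts took 6.57% of the TPM of WT 2 and between 2.01% and 3.79% in the other 5 libraries, so WT 2 stood apart. Xist reached 43.8 TPM in WT 2 against 3.83 TPM in WT 1, with the Y-linked Eif2s3y at 0 in both, while WT 3 and the 3 cKO libraries had Eif2s3y at 35.6 TPM or more and no Xist. Fbxo38 itself, as the sum of 7 listed transcripts, had a mean of 11.0 ± 1.95 TPM for WT against 7.04 ± 1.77 TPM for cKO (SD, n = 3 each), and WT 1 (8.79 TPM) was below cKO 2 (9.08 TPM). Fbxo38 RNA was thus still listed in each cKO library, and the files do not show which exons were deleted. Each result below that uses all 6 libraries carries these differences.

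Several of the 14 transcripts do not encode the full protein, and their structure decides what their level can show. GENCODE M21 (build GRCm38) holds 10 of them, of which 4 are classed as protein coding, 4 as retained introns, 1 as subject to nonsense-mediated decay and 1 as a processed transcript. The other 4 are 3 transcripts assembled by StringTie, one each for Matk, Mgl2 and Pdcd1lg2, and the Retnla transcript ENSMUST00000238847. No source used here names the build behind the deposited values, so the coordinates below are those of GENCODE for the same identifiers.

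Arg1 lies on the minus strand of chromosome 10. Its coding transcript Arg1-201 (ENSMUST00000020161) spans chr10:24915221-24927484 with 8 exons. Arg1-202 (ENSMUST00000218260) keeps intron 7, the 248 bases at chr10:24915780-24916027 between coding exons 7 and 8. Arg1-203 (ENSMUST00000220186) runs 503 bases past exon 2 into intron 2, at chr10:24922118-24922620. The sequences are shown because the bases after the exon border are what separates a read of unspliced RNA from one of mature Arg1 mRNA. Each starts with the last 30 bases of the exon, and capitals mark the first 30 bases of the kept intron.
Arg1-202, exon 7 into intron 7 (chr10:24915998-24916057): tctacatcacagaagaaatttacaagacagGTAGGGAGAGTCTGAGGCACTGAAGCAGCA
Arg1-201, exon 7 joined to exon 8: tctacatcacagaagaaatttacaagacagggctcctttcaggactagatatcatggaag
Arg1-203, exon 2 into intron 2 (chr10:24922591-24922650): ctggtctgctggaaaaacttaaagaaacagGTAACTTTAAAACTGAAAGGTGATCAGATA
Arg1-201, exon 2 joined to exon 3: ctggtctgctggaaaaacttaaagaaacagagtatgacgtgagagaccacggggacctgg

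The listed Il4ra transcript, Il4ra-205 (ENSMUST00000206846, plus strand), has an exon of 114 bases at chr7:125571934-125572047, between exons 7 and 8, that the coding Il4ra-201 lacks. Their ends differ too. The reading frame meets a TGA stop that begins at base 18 of this exon, after 230 codons, against 810 codons in Il4ra-201. In mice, an Il4ra mRNA with an extra exon that ends the frame before the membrane-spanning segment is known as the source of a soluble receptor. GENCODE classes Il4ra-205 as a target of nonsense-mediated decay. The pair of sequences shows where the frames part, with the extra exon up to its stop codon in capitals.
Il4ra-205, exon 7 into the extra exon: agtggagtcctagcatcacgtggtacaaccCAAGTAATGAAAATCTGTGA
Il4ra-201, exon 7 joined to exon 8: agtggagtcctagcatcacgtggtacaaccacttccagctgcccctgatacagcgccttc

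**Figure D1:**
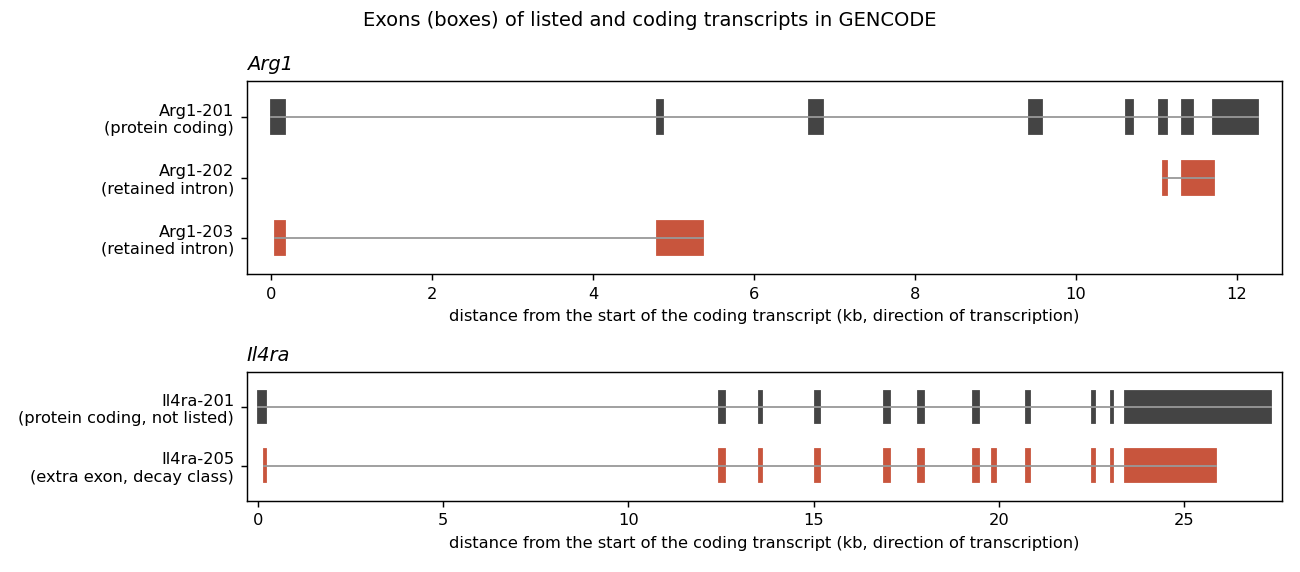
Exons (boxes) of Arg1 and Il4ra transcripts in GENCODE, by distance in kb from the start of the coding transcript. Arg1-202 joins exon 7 to exon 8 through intron 7, Arg1-203 extends exon 2, and Il4ra-205 has 1 exon of 114 bases that Il4ra-201 lacks.

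The listed Egr2 transcript, Egr2-203 (ENSMUST00000127820, chr10:67538683-67542188, plus strand), starts at its own first exon of 221 bases, which shares no base with Egr2-201. Its annotated coding sequence has 1236 bases against 1410 in Egr2-201, 174 fewer. Mgl2-203 (ENSMUST00000132645, chromosome 11) is a noncoding transcript of 359 bases in 2 exons. The form of the other listed Mgl2 transcript, the assembled MSTRG.2910.2, is not annotated. The listed TPM of Il4ra and Egr2 thus stand for variant forms, and the transcripts Il4ra-201, Egr2-201, Mgl2-201 and the coding Matk-201 were not analysed here.

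The receptor chain gene Il4ra had 1 listed transcript. Il4ra-205 measured 1.83, 3.37 and 2.32 TPM in WT against 0.88, 0 and 0.78 TPM in cKO. Every WT library lay above every cKO library, at low levels throughout. The difference in cKO was -1.21 ± 0.39 (SE) on the log2(TPM + 1) scale, with a limma adjusted p of 0.213 over the 2392 gene sums tested. Only the WT libraries brought this gene over the filter, a TPM of at least 1 in at least 3 libraries. Its lack of overlap thus followed from the filter, which also set its difference in part. The difference was -0.71 under a rescaling by median ratios and -2.52 with a pseudocount of 0.1 in place of 1. In the authors' deposited table this transcript has a log2 fold of -1.64 (adjusted p of 1.00).

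The transcription factor gene Egr2 went the other way. Egr2-203 measured 1.72, 0 and 0 TPM in WT against 1.85, 3.09 and 4.01 TPM in cKO. All cKO libraries were higher than WT 1, the highest WT library, although cKO 1 exceeded it by little. On the log2(TPM + 1) scale cKO was higher by 1.47 ± 0.49 (SE), with a limma adjusted p of 0.213. The 3 cKO libraries met the filter by themselves, while in WT only WT 1 reached 1 TPM. This difference was therefore in part set by the filter too. The transcript was listed at 0 in WT 2 and WT 3, which limits how far its fold can be read, and with a pseudocount of 0.1 the difference was 3.49. The authors' deposited table lists a log2 fold of 2.50 for it (adjusted p of 1.00).

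Arg1 encodes arginase 1, the enzyme that splits arginine into ornithine and urea and the best-known marker of this state in the mouse. Its 3 listed transcripts summed to 1696, 2650 and 2613 TPM in WT against 657, 728 and 1070 TPM in cKO 1 to 3. The lowest WT library was above the highest cKO library, and WT 1 was the lowest of its group. The WT mean was 2320 ± 540 TPM against 818 ± 221 TPM for cKO (SD, n = 3 each). The difference in cKO was -1.51 ± 0.52 (SE) on the log2(TPM + 1) scale, and it did not pass, with a limma adjusted p of 0.213. The exact two-sided permutation test gave p = 0.1, the smallest that 3 against 3 libraries allow, and 0.125 after Benjamini-Hochberg adjustment over the 5 members tested. That adjusted value depends on Egr2, Il4ra and Matk, which reached the same smallest p, Il4ra by way of the filter. The members were also chosen with earlier results known, and their rows were selected on the genotype difference, so these p-values are not those of unselected rows.

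The spread behind that test was not only that of Arg1. The SD of its log2 values was 0.37 in each genotype, from which the standard error of the difference would be 0.30. The fit, which borrows the spread of the other gene sums tested, used 0.52. Among transcripts tested, 0% passed the adjusted threshold of 0.05, and likewise 0% of gene sums. At an unadjusted p under 0.05 the limma shares were 23.0% of transcripts and 22.7% of gene sums. By the authors' deposited adjusted p under 0.05, 0.268% of the listed transcripts were called and 0 of the 14 member transcripts, the smallest member value being 0.0854 for Arg1-201.

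The size of the Arg1 difference depended on the scaling. Over the 2026 tested transcripts above 0 in both genotypes, the log2 ratio of mean TPM lay by a median of -0.38 from the log2 fold that the authors' deposited table states. That table gives Arg1-201 a log2 fold change of -1.09. With TPM rescaled by the median ratio of 4406 listed gene sums, Arg1 became 1971, 1207 and 1835 in WT and 1043, 788 and 1353 in cKO, so WT 2 then lay between cKO 1 and cKO 3. The difference was then -0.66 ± 0.69 (SE), with a limma adjusted p of 0.535. These factors come from transcripts chosen for a difference between the genotypes and were largest for WT 2, at 2.20. Among the libraries with Y-linked transcripts, WT 3 was above each cKO library for Arg1, and the difference was -1.71. The median over all gene sums tested was -0.35 without and 0.17 with that rescaling, so Arg1 lay -1.16 and -0.83 from it in turn.

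**Figure D2:**
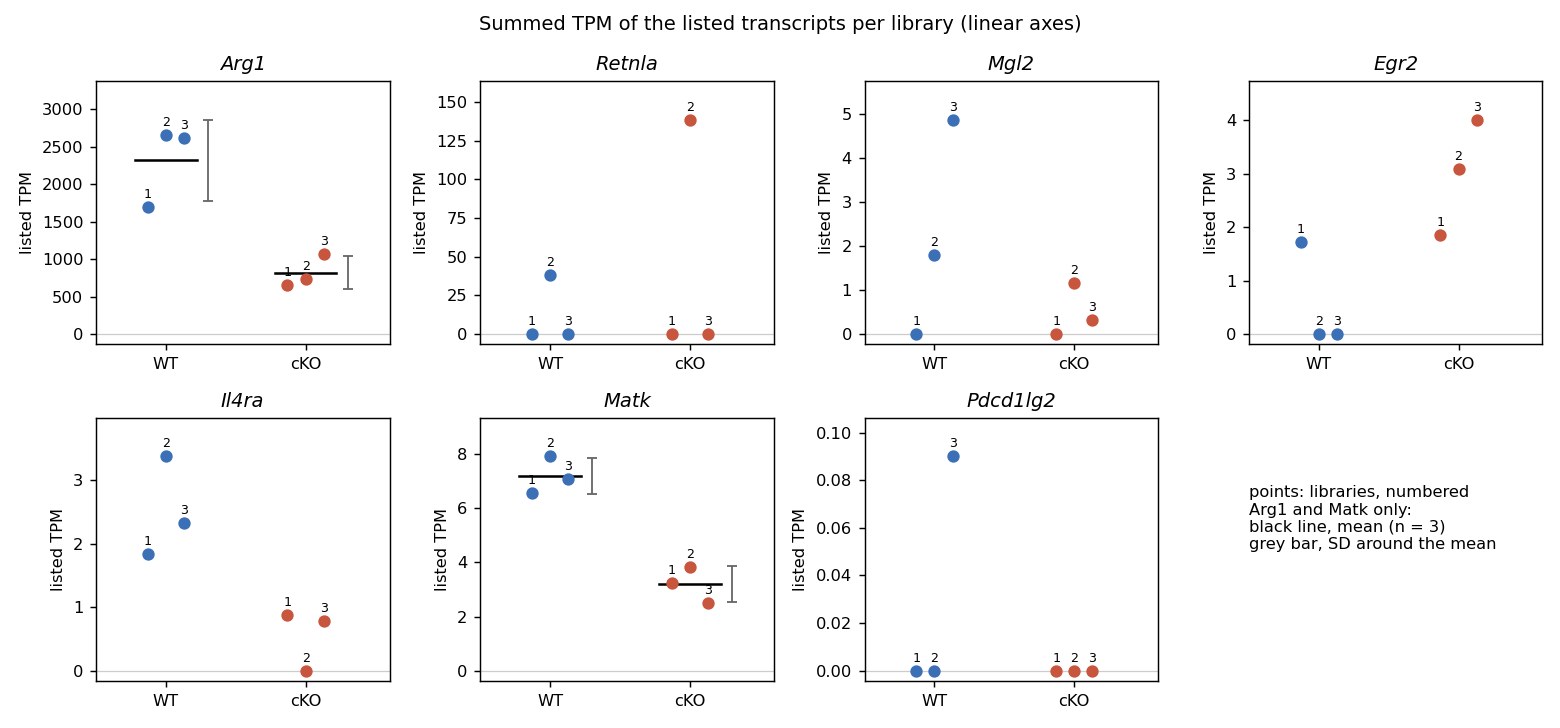
Summed TPM of the listed transcripts of each member (linear axes), with 1 point per library, numbered within its genotype. The 3 WT libraries lie above the 3 cKO libraries for Arg1, Il4ra and Matk, below them for Egr2, and among them for Mgl2, Retnla and Pdcd1lg2.

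The retained-intron forms were a small part of Arg1. Arg1-202 measured 5.15, 9.85 and 10.2 TPM in WT against 1.38, 2.15 and 1.76 TPM in cKO, with no overlap, against 22.9% of all transcripts tested that were likewise lower in cKO without overlap. Arg1-203 measured 1.10, 6.67 and 3.45 TPM in WT against 0.31, 0.61 and 1.46 TPM in cKO, where cKO 3 lay above WT 1. The differences in cKO were -1.73 ± 0.46 (SE) for Arg1-202 and -1.26 ± 0.55 (SE) for Arg1-203 on the log2(TPM + 1) scale, and neither passed (limma adjusted p of 0.194 and 0.209). Without WT 2 the Arg1-203 difference was -0.82.

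As a share of the listed Arg1 TPM, Arg1-202 took 0.304%, 0.372% and 0.392% in WT and 0.210%, 0.295% and 0.165% in cKO. The groups were separated by a narrow gap between WT 1 and cKO 2. Both retained introns together took 0.505% ± 0.129 in WT and 0.312% ± 0.0616 in cKO (SD, n = 3 each), with cKO 2 at 0.379% above WT 1 at 0.368%. An exact two-sided permutation test of this joint share gave p = 0.2. Arg1-201 made up between 99.4% and 99.7% of the listed Arg1 TPM in each library.

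Retnla encodes RELM-alpha, a secreted protein of alternatively activated macrophages. Its listed transcript reached 38.1 TPM in WT 2 against 139 TPM in cKO 2, and the other 4 libraries had it at 0. Each genotype thus had 1 library with the transcript and 2 without, and the filter left it out of the test. Other Retnla transcripts were not analysed here. Mgl2, a galactose-type lectin gene that dendritic cells also express, summed to 0, 1.79 and 4.88 TPM in WT against 0, 1.17 and 0.33 TPM in cKO. The groups overlapped, with WT 1 and cKO 1 both at 0, and the difference in cKO was -0.84 ± 0.62 (SE), with a limma adjusted p of 0.38. Without WT 1 the difference was -1.51 ± 0.50 (SE), with a limma adjusted p of 0.127. In the 4 libraries with Y-linked transcripts it was -2.05. There the filter asked for 1 TPM in only 2 libraries, which WT 3 and cKO 2 met. Median ratio rescaling gave -0.44, and without WT 2, WT 3 or cKO 2 the Mgl2 sum no longer met the filter. The listed Pdcd1lg2 transcript, of the gene for the PD-1 ligand PD-L2, had 0.09 TPM in WT 3 and was listed at 0 in all other libraries.

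A STAT6-type motif, TTCNNNNGAA, was looked for in the RefSeq promoter windows (GRCm38.p6) of the members, which run from 250 bases before to 50 bases after each gene start. The motif equals its own reverse complement, so 1 search covers both strands. Windows were found for 6 of the 7 genes, all but Arg1, and the motif was in those of Retnla and Pdcd1lg2. It was present in 6.95% of all 32851 windows. Both stretches lie on the plus strand and are shown with 30 bases on each side and the motif in capitals.
Retnla promoter (chr16:48842434-48842503): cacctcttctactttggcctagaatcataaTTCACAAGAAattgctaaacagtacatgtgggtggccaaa
Pdcd1lg2 promoter (chr19:29410807-29410876): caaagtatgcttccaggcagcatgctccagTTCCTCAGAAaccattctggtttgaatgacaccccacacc
The motif starts 145 bases before the Retnla start and 82 bases before that of Pdcd1lg2. A match in the letters is a description and does not show binding, and the TPM of these genes, at 0 in most libraries, do not bear on it.

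Matk encodes a kinase of the Csk family, which phosphorylates and restrains Src-family kinases. Its 5 listed transcripts summed to 6.57, 7.92 and 7.10 TPM in WT against 3.25, 3.84 and 2.50 TPM in cKO. The groups were well apart, with a WT mean of 7.20 ± 0.680 TPM against 3.20 ± 0.672 TPM for cKO (SD, n = 3 each). From its own spread alone the standard error of the log2 difference would be 0.15, the smallest of the 5 members tested. The difference in cKO was -0.98 ± 0.40 (SE) on the log2(TPM + 1) scale, with a limma adjusted p of 0.215 and an exact permutation p of 0.1. Under the median ratio rescaling it was -0.28 ± 0.44 (SE), with a limma adjusted p of 0.673, and the groups overlapped, WT 2 being at 3.61 and cKO 1 at 5.16. The sum without WT 2 differed by -0.91 ± 0.45 (SE).

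The listed Matk transcripts, which do not include the coding Matk-201, differed among themselves. The assembled MSTRG.1932.10 held most of the sum, at 6.57, 7.78 and 6.29 TPM in WT and 3.13, 2.27 and 1.43 TPM in cKO. Its difference in cKO was -1.29 ± 0.44 (SE), with a limma adjusted p of 0.209. The retained-intron transcript ENSMUST00000126720 (Matk-206) had 1.57 TPM in cKO 2, 0.70 TPM in cKO 3 and 0.69 TPM in WT 3, and was at 0 elsewhere. The remaining 3 stayed at 0.24 TPM or less in each library.

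As a share of the listed Matk TPM, MSTRG.1932.10 took 100%, 98.2% and 88.6% in WT and 96.3%, 59.1% and 57.2% in cKO. Its form is not annotated, and a share of listed transcripts is not one of all Matk RNA. WT libraries and cKO 1 were close together, while cKO 2 and cKO 3 were lower. The mean share was 95.6% in WT against 70.9% in cKO, and the exact two-sided permutation test gave p = 0.2. In cKO 2 and cKO 3, Matk-206 took 40.9% and 28.0% of the sum.

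**Figure D3:**
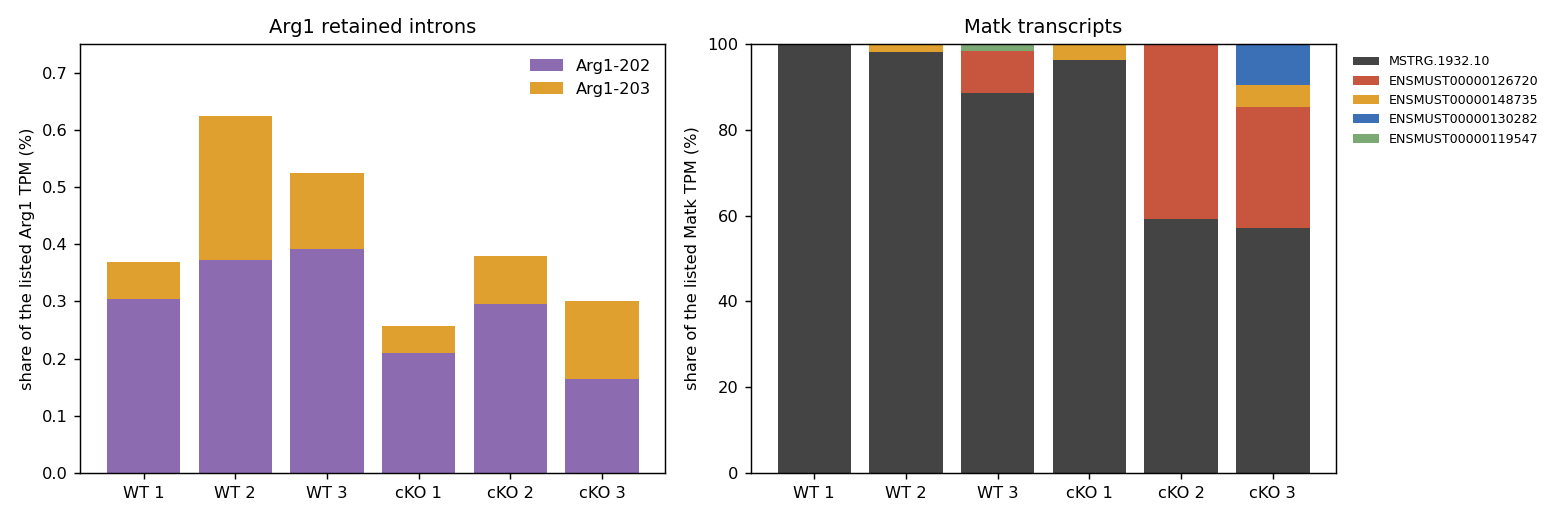
Share of each listed transcript in the listed TPM of its gene (%, stacked bars, 1 bar per library), for the retained introns of Arg1 on the left and all Matk transcripts on the right. The Arg1 retained introns take at most 0.623% in any library, and MSTRG.1932.10 makes up 59.1% and 57.2% of Matk in cKO 2 and cKO 3.

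Of the 5 member genes tested, the groups did not overlap for Arg1, Il4ra and Matk, lower in cKO, and for Egr2, higher in cKO. For Il4ra this followed from the filter, which only its WT libraries met. Over all 2392 gene sums tested the share without overlap was 21.0% lower and 10.5% higher in cKO. The members were chosen with earlier results known, so nothing is read from this count. By the authors' deposited direction, 9 of the 14 member transcripts were lower and 5 higher in cKO, against 60.6% lower over the table.

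Other genes of the pathway showed which parts the table covers. Of 21 genes for ligands, receptors and signalling of IL-4 and IL-13, 16 had a listed transcript and 4 passed the filter, 2 lower and 2 higher in cKO, with 0 called. Besides Il4ra, Jak2, a kinase that can act at the receptor, measured 3.75, 6.22 and 4.02 TPM in WT against 2.03, 0 and 2.67 TPM in cKO. The groups did not overlap, and the difference was -1.32 ± 0.55 (SE), with a limma adjusted p of 0.216. Dok1 and Dok2, adaptors that dampen kinase signalling, differed by 0.31 and 0.27 on the log2 scale, well within their standard errors. Stat6 itself was listed only at 0.44 TPM in cKO 1.

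Of 15 transcription factor genes of alternative activation, 10 were listed and 3 tested, with 0 called. Myc, which IL-4 induces in human macrophages, measured 4.37, 14.2 and 12.8 TPM in WT against 3.04, 4.22 and 3.40 TPM in cKO. WT 1 lay just above cKO 2, the highest of its group, and the difference was -1.20 ± 0.52 (SE), with a limma adjusted p of 0.219. Egr1, an early growth response gene like Egr2, was lower in mean in cKO, at -0.87 ± 0.50 (SE), opposite in sign to Egr2.

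Of 25 target genes of IL-4 and IL-13, 14 were listed and 10 tested, 8 lower and 2 higher in cKO, with 0 called. Their median difference was -0.95, against -0.35 over all gene sums tested. Among these targets are the members Arg1, Matk and Mgl2, chosen with earlier results known. Tested markers of mesothelial cells and fibroblasts had medians of -1.21 and -1.82. Macrophage markers, of which only Adgre1 was tested, stood at -1.39, and those of resident peritoneal macrophages (Gata6 and Rarb tested) at -1.35. The other tested role lists had medians of -0.87 to -0.47. Without WT 2 the figures for the targets were 7 lower of 9 tested and a median of -0.62, against -0.02 over all. Over all gene sums tested 58.3% were lower in cKO. Under median ratio rescaling that share was 44.8%, with 8 of the 10 targets lower and a target median of -0.37 against 0.17 over all. Mmp12, a macrophage elastase gene, had the larger of the 2 positive differences, with 58.7, 39.7 and 46.7 TPM in WT against 409, 62.4 and 617 TPM in cKO. No WT library reached a cKO library, and cKO 2 was far below cKO 1 and cKO 3. Flt1, a VEGF receptor gene, measured 1.78, 5.21 and 2.51 TPM in WT against 0.65, 1.50 and 0.99 TPM in cKO.

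Around arginine itself, 11 of 16 genes of arginine and polyamine metabolism were listed and 5 tested, 3 lower and 2 higher, with 0 called. Slc7a2, a carrier that brings arginine into the cell, measured 4.39, 48.8 and 14.4 TPM in WT against 8.16, 6.03 and 8.11 TPM in cKO, so that WT 1 was the lowest library of all. The polyamine oxidase gene Smox differed by -0.55 ± 0.43 (SE), and Sat1, which acetylates polyamines, was higher in mean in cKO, by 0.54 ± 0.46 (SE). Nos2, whose enzyme competes for arginine, had 0.03 TPM in WT 2 and was listed at 0 in all other libraries.

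Of 10 genes of the Csk and Src families and the Csk anchor, 8 were listed and 5 tested, 4 lower and 1 higher, with 0 called. Pag1, the membrane anchor of Csk, measured 2.17, 2.17 and 1.32 TPM in WT against 0.19, 0.05 and 0.70 TPM in cKO. Like Il4ra, it passed the filter through the WT libraries alone, which in part set its difference of -1.15 ± 0.34 (SE), with a limma adjusted p of 0.213. Csk and Src differed by -0.84 ± 0.69 (SE) and -0.67 ± 0.43 (SE). Of the PD-1 genes, Pdcd1lg2 and Rgmb were listed and 0 were tested.

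The summed markers of macrophages, mesothelial cells and fibroblasts were also lower in mean in cKO. Macrophage markers had 3 of 7 genes listed, Adgre1, Csf1r and Itgam, and their sum ranged from 6.48 to 17.7 TPM in WT and from 1.21 to 4.74 TPM in cKO. Cd68, Lyz2, Fcgr1 and Mertk were not analysed here, so the labelled cell type could be checked only in part. Mesothelial markers (8 of 9 listed) summed to 26.6 to 102 TPM in WT and 7.37 to 23.5 TPM in cKO. Fibroblast markers (6 of 8 listed) summed to 37.1 to 409 TPM in WT and 12.7 to 44.5 TPM in cKO, so WT 1 lay within the cKO range there.

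The mesothelial sums put the libraries in the same order as Arg1, from WT 2 through WT 3, WT 1, cKO 3 and cKO 2 to cKO 1. The macrophage marker sums gave this order too, except that cKO 2 (4.74 TPM) lay above cKO 3 (4.02 TPM). The fibroblast sums began with WT 2 and WT 3 too, but had WT 1 below cKO 2 and cKO 3. The part of mesothelial cells and fibroblasts in the member differences was not tested. In bulk RNA, fewer cells of a type and less RNA per cell cannot be told apart. Dendritic cell markers, of interest for Mgl2 and Pdcd1lg2, summed to 0.42 TPM or less in each library, with 5 of 5 genes listed. Zbtb46 was at 0 in all libraries but cKO 3, at 0.05 TPM. Such sums hold only listed transcripts, so a low sum does not show that a cell type was rare. Markers of B cells (4 of 6 listed) summed to 1.49 to 7.76 TPM in WT and 0.21 to 1.41 TPM in cKO. Those of neutrophils (2 of 4 listed) summed to 0.19 to 1.12 TPM in WT and were at 0 in cKO. T cell markers (4 of 4 listed) summed to 0.14 to 0.81 TPM in WT and 0 to 1.76 TPM in cKO. The eosinophil marker Siglecf (1 of 4 listed) had 0.05 to 1.06 TPM in WT and 0.70 to 1.45 TPM in cKO. Mast cell markers (2 of 4 listed) stayed at 0.19 TPM or less. Of the resident peritoneal macrophage markers, 5 of 7 were listed, and they summed to 4.68 to 17.0 TPM in WT and 2.75 to 3.54 TPM in cKO.

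**Figure D4:**
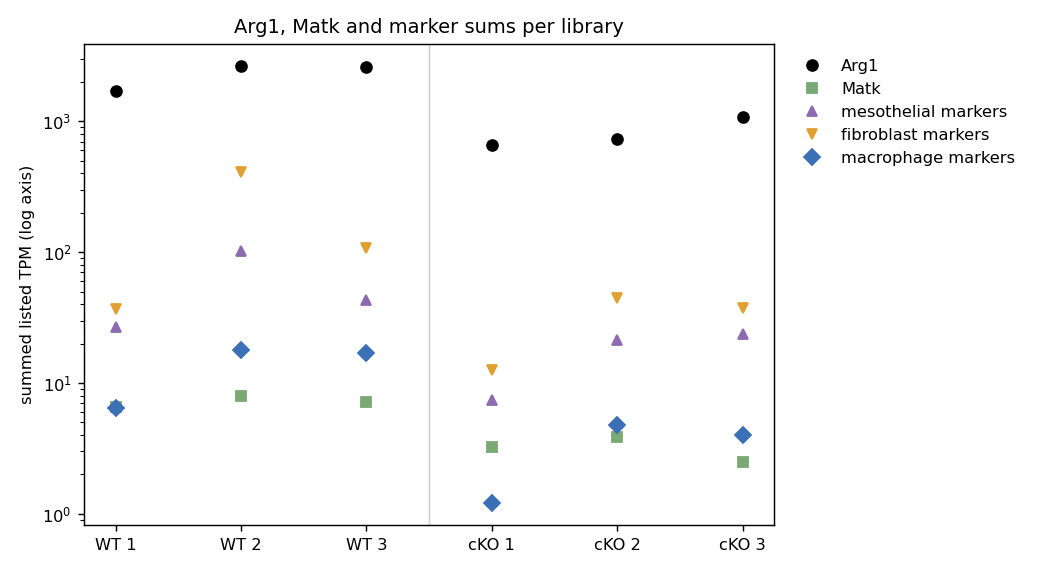
Summed listed TPM (log axis) of Arg1, Matk and the macrophage, mesothelial and fibroblast marker lists in each library. Fibroblast markers peak in WT 2 at 409 TPM, while Arg1 has 2650 TPM there against 2613 TPM in WT 3.

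The genes with the most similar pattern over the 6 libraries were named by the smallest mean absolute difference of log2(TPM + 1) deviations, among gene sums with a mean of at least 5 TPM. For Arg1, with 431 candidates, they were the mitotic regulator gene Cdc20 (0.19), the interleukin-1 receptor gene Il1r1 (0.22) and Marcksl1 (0.27). Cdc20 measured 7.69, 11.9 and 11.3 TPM in WT against 1.58, 4.01 and 5.11 TPM in cKO. For Matk they were Fbxo38 itself (0.19), Dcaf11, an adaptor gene of another ubiquitin ligase (0.21), and Cdv3 (0.22). For Il4ra they were Nt5dc2, Tfdp1 and Cdv3, at 0.20 each, and for Mgl2 Ppfibp1, Bcl2l1 and Rtp4, at 0.31 to 0.32. For Egr2 they were the lamin gene Lmna (0.27), the ribosomal protein gene Rps10 (0.30) and Hacd4 (0.36). These likenesses rest on 6 libraries from a table chosen for a genotype difference, and they are descriptions only.

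**Figure D5:**
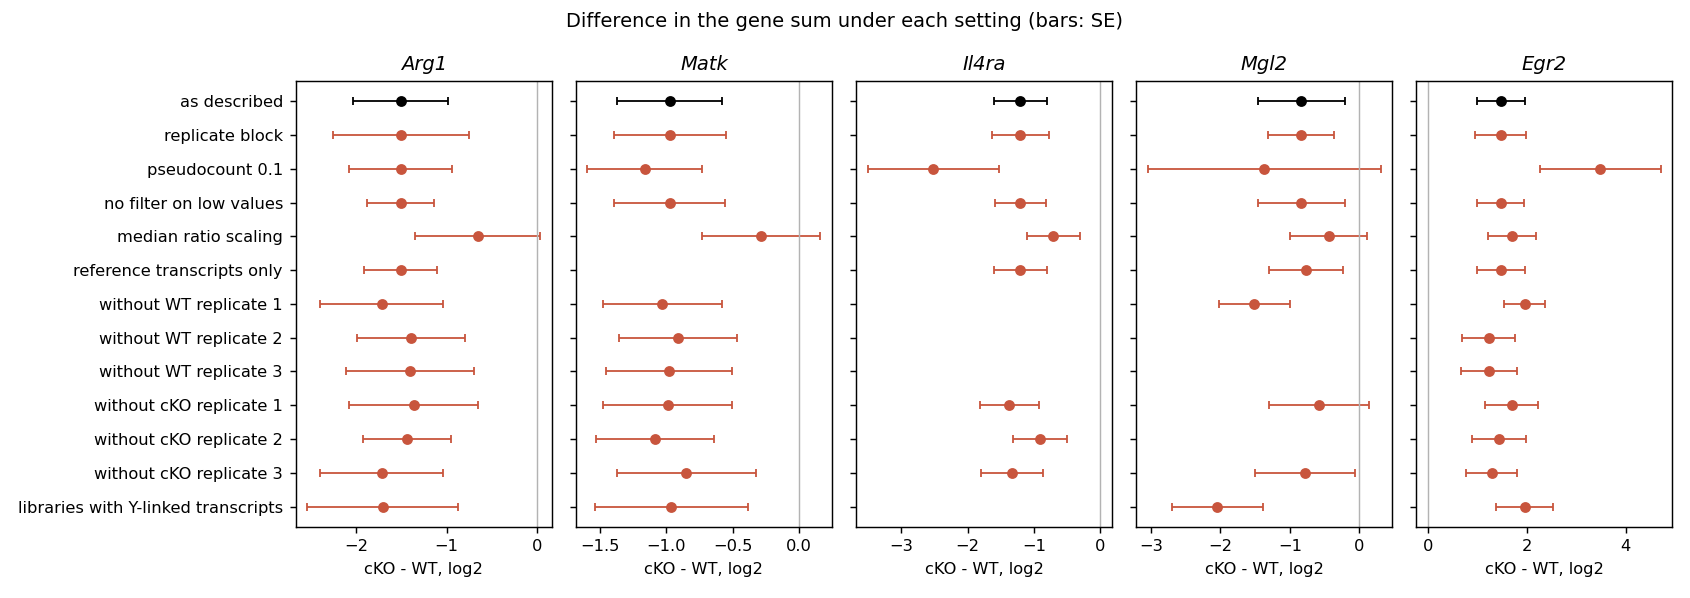
Difference between cKO and WT in the log2 gene sum of each tested member under each processing alternative, with SE as bars. Each member keeps its sign wherever it could be fitted, although several alternatives cannot reverse a member whose groups do not overlap. The Arg1 difference runs from -1.72 to -0.66.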

How the data were processed

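RNA with poly(A) tails was sequenced in 6 libraries of peritoneal macrophages, 3 per genotype. The labels' protocols give fastp for trimming, HISAT2 for alignment and StringTie for assembly. The submitters' processing notes add RSEM and DESeq2 with neither version nor role. No source used here names a genome build or annotation. The deposited table holds TPM per transcript and library, computed by the authors, their mean TPM, a fold change as a ratio and as log2, and p-values before and after adjustment. Each deposited log2 fold is at least 1.0001 in size. Depth is unknown, since TPM does not hold it. No per-sample column was left unmatched.

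TPM of listed transcripts were summed by gene name. Transcripts and gene sums with at least 1 TPM in at least 3 libraries (2050 and 2392) were compared between genotypes on log2(TPM + 1) by limma 3.58.1 (R 4.3.3), using a variance trend and genotype alone in the model. Tests were two-sided, with Benjamini-Hochberg adjustment at 0.05 over all features. On this scale the change of low transcripts is understated. The fits were tested on simulated data. Shares were taken in libraries with a gene sum of at least 1 TPM. Exact permutation tests are two-sided. The labels do not say which littermates form a pair, and p-values measure only the spread between these libraries, which may be technical.

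The members and gene lists were chosen with earlier results of these data known. Besides the 7 members, the text names the 3 gene sums most like each tested member and up to 4 gene sums of smallest p in each of 6 role lists. Stat6, Nos2 and Rgmb were named outside this rule, after their values were seen. Transcript classes and sequences came from GENCODE M21, promoters from RefSeq (GRCm38.p6). A second, short table that lists no member was not used. Alternatives were a replicate block, leaving out each library, a pseudocount of 0.1, no filter, median ratio scaling and reference transcripts only. The libraries with Y-linked transcripts alone, and the list counts without WT 2 and under rescaling, were added after seeing the data. In the fit of the former, the filter asked for fewer libraries to reach 1 TPM. Tables and figures were made with Python 3.11.15, pandas 2.3.3, numpy 2.4.6, scipy 1.17.1 and matplotlib 3.10.9. One gene called when a library was left out is not reported here.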

Additional observations from a re-analysis of the deposited data

How the results depend on the processing

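The 5 tested gene sums kept their direction, with adjusted p above 0.05, under each alternative that could be fitted. That direction was in part fixed in advance. The replicate block and the lack of a filter cannot change a difference, and reference transcripts only left Arg1, Il4ra and Egr2 unchanged. Leaving out libraries or lowering the pseudocount cannot reverse a member whose groups do not overlap. The rows were also selected on the genotype difference. The ranges were -1.72 to -0.66 for Arg1, -1.16 to -0.28 for Matk, -2.52 to -0.71 for Il4ra, -2.05 to -0.44 for Mgl2 and 1.23 to 3.49 for Egr2, the lowest adjusted p being 0.127. A pseudocount of 0.1 gave the values farthest from 0 for Matk, Il4ra and Egr2, and median ratio scaling those nearest to 0 for Arg1, Matk, Il4ra and Mgl2. Leaving out 1 library gave -1.72 to -1.36 for Arg1. The Il4ra sum failed the filter without WT 1, WT 2 or WT 3, and in the libraries with Y-linked transcripts alone, and the Mgl2 sum without WT 2, WT 3 or cKO 2, so no value was fitted there. In those libraries, WT 3 against cKO, Arg1 differed by -1.71 and Egr2 by 1.96, with WT 3 assumed to vary like the cKO libraries. Matk without assembled transcripts failed the filter, and its isoform share had no value. The count past the adjusted threshold, 0 at both levels with all libraries and TPM as deposited, was between 0 and 5 transcripts and between 0 and 1 gene sums when a library was left out, and 1 gene sum (Gm42959) under median ratio scaling. Those called included Eif2s3y without WT 3, and transcripts of Hmgb1, Cipc, Manf and Vps11 without cKO 2, named after their values were seen; the cause was not tested. The replicate numbers gave no clear pairing: deviations of same-numbered libraries had correlations of 0.13, -0.14 and -0.11 over the tested transcripts. With deviations taken within 3 libraries per genotype, these correlations cannot decide whether the numbers pair the libraries. With the replicate block the adjusted p was 0.237 for Arg1 and 0.201 for Matk, and 0 transcripts and 0 gene sums passed. Transcripts at an unadjusted limma p under 0.05 numbered 498 with the block and 472 without it, and gene sums 611 and 543. Not every library correlated best with its own number. Median ratio scaling moved the share of gene sums lower in cKO from 58.3% to 44.8%. TPM gives no depth, so no counting error can be set on the low values of Il4ra, Egr2, Mgl2 and Matk.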
